A study of Mus musculus with 4 samples.

Results

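Barcodes rich in Siglech, the transcript of a sialic acid-binding lectin that marks mouse plasmacytoid dendritic cells, were found among the CD45.2+ leukocytes of the intraepithelial layer. A barcode was a member when it held at least 2 Siglech UMIs (unique molecular identifiers, each counted as 1 transcript), fewer than 10 UMIs of Jchain, which plasma cells carry in great amounts, and 0 UMIs summed over the T cell genes Cd3d, Cd3e and Cd3g. The rule found 224 members among 14378 barcodes, of which 179, or 79.9%, lay in the small intestine library. The study profiled leukocytes sorted as CD45.2+ from the stomach, small intestine, cecum and colon of uninfected C57BL/6 mice, with 1 droplet library of 3′ transcript ends per tissue. All 4 groups share strain, sort and infection status and differ by tissue label alone, and how many animals entered a library is not given in the sources used here. The protocol text speaks of colons for every library, so the tissue was taken from the tissue label. No tissue has a replicate library, so the text gives no p-values, and a difference between tissues cannot be told apart from one between animals, libraries or runs.

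Plasmacytoid dendritic cells are leukocytes that read nucleic acids in endosomes through Toll-like receptors and can release large amounts of type I interferon. They depend on the transcription factor TCF4 (also called E2-2), which works with IRF8, SPIB, RUNX2 and BCL11A, while ID2 opposes TCF4 and favours conventional dendritic cells. In the mouse small intestine they are known to be drawn by the chemokine receptor CCR9, and surface receptors that signal through the adaptor DAP12, Siglec-H among them, hold their interferon response in check.

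Promoter stretches of 3 genes are shown because they belong to the gene that chose the members and to the genes of the plasmacytoid list with the highest ratios to other barcodes that have a single entry in the RefSeq promoter table (GRCm38.p6). Each is the 250 bases before the tabulated start, written 5′ to 3′ on the gene's strand. The stretch of Siglech is chr7:55767934-55768183 (+), that of Cd300c chr11:114960508-114960757 (-) and that of Klk1 chr7:44225110-44225359 (+), beside gene spans of chr7:55768154-55779448, chr11:114956105-114960507 and chr7:44225360-44229622. Capitals mark exact matches, on either strand, to the E-box CAGGTG, the RUNX motif TGTGGT and the interferon response motif (GAAA followed by GAAA, 2 bases apart), and none of these matches overlaps another.
Siglech: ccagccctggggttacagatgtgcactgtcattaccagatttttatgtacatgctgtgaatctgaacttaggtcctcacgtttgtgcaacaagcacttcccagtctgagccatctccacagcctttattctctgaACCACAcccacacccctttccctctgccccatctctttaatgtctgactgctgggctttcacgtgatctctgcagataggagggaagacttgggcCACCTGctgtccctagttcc
Cd300c: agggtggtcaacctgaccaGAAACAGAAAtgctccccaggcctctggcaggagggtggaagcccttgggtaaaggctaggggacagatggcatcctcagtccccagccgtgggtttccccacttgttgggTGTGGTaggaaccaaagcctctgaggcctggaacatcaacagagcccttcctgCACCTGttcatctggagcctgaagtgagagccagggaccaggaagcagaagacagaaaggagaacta
Klk1: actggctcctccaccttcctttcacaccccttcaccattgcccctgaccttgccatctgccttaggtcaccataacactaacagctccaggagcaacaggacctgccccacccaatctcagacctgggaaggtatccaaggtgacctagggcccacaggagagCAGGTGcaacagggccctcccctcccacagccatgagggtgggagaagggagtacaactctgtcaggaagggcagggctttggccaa
Positions count from the tabulated start. The Siglech stretch holds the RUNX letters on the other strand (ACCACA) at -115 and the E-box on the other strand (CACCTG) at -20. The gene span of Siglech begins inside the printed stretch, so that E-box lies within the span. Cd300c holds an interferon response match at -231, a RUNX match at -120 and an E-box at -67, and Klk1 holds 1 E-box at -87. Over 24 genes of the plasmacytoid list with an entry, CAGGTG was present in 7 (29.2%), against 19.4% of the 27025 genes searched. TGTGGT was present in 6 of the 24 (25%) against 15.9%, the interferon response motif in 2 (8.33%) against 3.46%, the second E-box form CAGCTG in 3 (12.5%) against 14.7%, and the ETS and IRF composite (GGAA followed by GAAA, 2 bases apart) in 0 against 2.68%. These letters are descriptions of sequence and not of binding.

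Members made up 5.64% of small intestine barcodes (179 of 3171, 95% exact binomial interval 4.87 to 6.51%), 0.495% of cecum (21 of 4244, 0.307 to 0.755%), 0.478% of colon (18 of 3764, 0.284 to 0.755%) and 0.188% of stomach (6 of 3199, 0.0689 to 0.408%). The small intestine share thus lay above the other intervals, and those of cecum, colon and stomach overlapped. Every interval in the text is a 95% interval that covers counting error only. The libraries held 8568438 to 12988676 UMIs. The median member held 3605 UMIs in small intestine, 4017 in cecum, 5909 in colon and 4784.5 in stomach, against 2412, 1705, 2977.5 and 2300 in the barcodes that were not members, so members were the deeper set in each library. Without the deepest 5% of barcodes of each library, cecum kept 10 members, or 0.248%. Of the barcode sequences, 23 occurred in more than 1 library, and none of these was a member.

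The members were chosen by their measured Siglech, Jchain and CD3 counts, so Siglech is described without a test. Small intestine members held 3 to 52 Siglech UMIs (median 16), cecum members 2 to 22 (median 10), colon members 8 to 38 (median 17) and stomach members 4 to 24 (median 14.5). In small intestine 175 members had 6 or more and 4 had 3 to 5, so few lay near the threshold. Outside it, 16 barcodes of that library held 1 Siglech UMI, and the 4 of these that met the other limits carried 1 to 5 genes of the plasmacytoid list after thinning. In these 4, Cox6a2, Cd300c and Smim5 had 0 UMIs, while Irf8 stood at 600.5 and Lair1 at 867 CPM, above T-like barcodes (133 and 10.8 CPM) and below members. The other limits removed 38 barcodes with at least 2 Siglech UMIs, 31 by the CD3 genes and 10 by Jchain, with 3 removed by both. The 9 removed with a CD3 sum of 1 held 4104 CPM (the usual scaling of a gene's UMIs to the total UMIs of the set) of Irf8 and 1905 CPM of Cox6a2, levels close to those of members. The 10 removed by Jchain held 484 to 1959 Jchain UMIs at a median of 20268.5 UMIs per barcode. Siglech was found in 28 of 2538 small intestine barcodes with a CD3 sum of at least 2. Small intestine members were also described by their Siglech count, a split added after the data were seen: 38 held 6 to 11 UMIs, 84 held 12 to 19 and 53 held 20 or more, at a median depth of 3392, 3456 and 4530.0 UMIs. Bst2 stood at 3598, 3804 and 3820.5 CPM and Tcf4 at 1979, 1832 and 1871 CPM in these sets in that order. Irf8 stood at 3814, 4218 and 4423 CPM and Klk1 at 795, 1106 and 1143 CPM, both lowest in the set with the fewest Siglech UMIs, and depth differed between the sets as well.

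**Figure D1:**
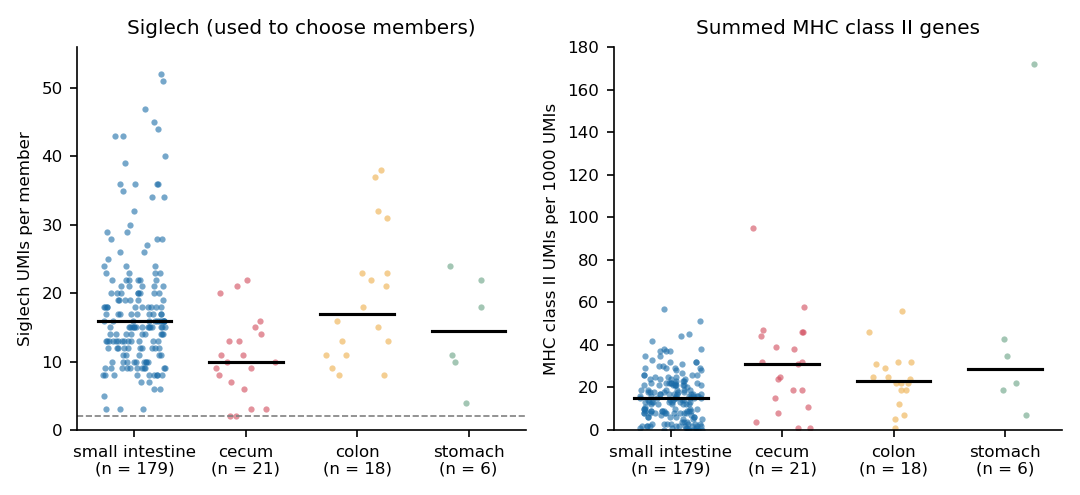
Each point is 1 member; the left panel gives its Siglech UMIs (the dashed line is the limit of 2) and the right panel its UMIs of the MHC class II genes after thinning to 1000 UMIs, for the 4 libraries, with black bars at the medians (16, 10, 17 and 14.5 for Siglech; 15, 31, 23 and 28.5 for MHC class II). Siglech reaches 52 UMIs in small intestine, and 1 stomach member stands far above the rest at 172 MHC class II UMIs.

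The label was checked against 31 genes of the plasmacytoid program, none of which the rule used. These genes were listed with earlier results of these data known, so they are not an independent check. Each barcode was thinned at random to 1000 UMIs, and 26 of these genes (24 in stomach) were counted as present or not, leaving out Ccr9, Ly6d, Ly6c2, Cd7 and Plac8, which other leukocytes share. Small intestine members carried 8 to 18 of them (median 13), cecum members 5 to 15 (median 9), colon members 6 to 15 (median 10) and stomach members 3 to 16 (median 12). Every one of the 224 members carried at least 3, a number that 1.76% of T-like barcodes reached in small intestine and 1.62 to 2.61% in the other libraries. T-like barcodes were those with a CD3 sum of at least 2, no Siglech and no Cd79a. Of 31 B-like small intestine barcodes 12, or 38.7%, also reached 3, with 0 to 6 genes each, against the 8 to 18 of small intestine members.

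Markers of other cell types were counted within members before the other results. At least 5 UMIs of macrophage markers were present in 4 of 179 small intestine members, of B cell markers in 6 and of T cell receptor genes in 1, and in 2 of 21 cecum and 2 of 18 colon members 1 of these sets was reached. Immunoglobulin genes reached 5 UMIs in 41 small intestine members, plasma cell markers in 18 and epithelial markers in 2. Members were not left out for these further markers in any later result. Summed macrophage markers gave 241.1 CPM in small intestine members and 607.1 CPM in the other barcodes, with Fcgr1 and Mertk at 0, and 1 member held 110 of the 178 UMIs. In stomach 2 of 6 members held 152 and 193 UMIs of macrophage markers, and the other 4 held 0. These 2 barcodes carried all Lyz2 and C1qa of the stomach set, 4577 and 1831 CPM. The member with 193 macrophage UMIs held 4 Siglech UMIs, 172 MHC class II UMIs per 1000, 3 UMIs per 1000 of the plasmacytoid list and 1 of its factors, values within the ranges of stomach macrophage-like barcodes for both lists (0 to 17 and 0 to 7). Genes outside the rule thus go against the label for this stomach member. A cecum member with 2 Siglech and 10 macrophage-marker UMIs held 95 class II, 7 plasmacytoid list and 6 factor UMIs per 1000. These lay within the ranges of the 9 cecum conventional-dendritic-like barcodes (31 to 136, 4 to 12 and 0 to 6). Another in small intestine, with 6 Siglech UMIs, held 12 list and 5 factor UMIs per 1000. T-like barcodes there ranged from 0 to 15 and from 0 to 6. Without the 2 macrophage-rich barcodes the other 4 stomach members had 4967 (4018 to 6071) CPM of Bst2, 3241 (2485 to 4155) of Irf8, 2248 (1627 to 3028) of Tcf4 and 1829.8 (1275 to 2545) of Ccr9. Ccl4 was then at 366 (147 to 754) CPM, below the other libraries as before. Of further stomach levels given below that moved by over 1.5-fold, Flt3 went to 366, Cd209d to 1464, Clec10a to 52.3, Tlr7 to 52.3 and Ccr7 to 105 CPM. In small intestine, leaving out the 11 members with 5 or more UMIs of macrophage, B or T cell receptor markers took Csf1r, Axl and Trdc to 0 UMIs. Doublets were not removed, and whether these barcodes hold 1 or more cells was not tested.

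Bst2, which encodes tetherin, the antigen of plasmacytoid-depleting antibodies, was measured at 3784 (3645 to 3927) CPM in small intestine, 3429 (3047 to 3845) in cecum, 3169.9 (2837 to 3532) in colon and 3720.3 (3099 to 4429.5) in stomach. The libraries lay close together for this gene. After thinning, 97.8% of small intestine members and 6.21% of T-like barcodes carried a Bst2 UMI. CPM values are sums over the members of a library and are compared within a gene only.

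The transcription factors of the lineage were present in nearly all small intestine members. Irf8 was measured at 4236 (4089 to 4387) CPM in small intestine, 3756 (3357 to 4191) in cecum, 3758 (3394 to 4149.8) in colon and 2214 (1742 to 2776) in stomach, with its lowest value in the 6 stomach members. Tcf4 stood at 1901, 1299, 1291 and 1388 CPM in members of small intestine, cecum, colon and stomach, against 50.9 CPM in small intestine T-like barcodes. Runx2, which shapes the movement of these cells out of the marrow, stood at 1375, 959.6, 752 and 768 CPM in the same order. Spib stood at 676, 363, 520.3 and 177 CPM and Bcl11a at 863, 609, 491 and 502 CPM, and for both, as for Runx2, small intestine was the highest of the 4. Tcf4 was highest there only with all 6 stomach members: without the 2 rich in macrophage markers it stood at 2248 CPM in stomach. All 11 factors of the list were at least 2-fold higher in small intestine members than in the other barcodes of the library, where 20.7% of 4510 genes were at least 2-fold higher and 11.2% at least 2-fold lower. This contrast was set up by the rule, so its counts are given as a description. The same shares over all genes apply to each later list count in this contrast. The smallest ratio was that of Ikzf1, a pan-lymphoid factor, at 2.15-fold (1.93 to 2.39), and the largest that of Spib at 43.8-fold (36.7 to 52.4).

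Factors of conventional dendritic cells were mixed. Id2, the antagonist of TCF4, was at 56.9 (41 to 76.9) CPM in small intestine members and 441 CPM in the other barcodes, 7.75-fold lower. Batf3, needed by cross-presenting dendritic cells, had 4 UMIs in the 179 members, Zbtb46, which marks the conventional lineage, had 3, and Zfp366 had 0, which allows up to 4.06 CPM (3 counts over the members). Klf4 was 3.36-fold higher, at 471, 983, 491 and 472 CPM in the 4 sets of members, with cecum the highest. Irf4 stood at 126, 328, 308 and 148 CPM and was lower in small intestine members than in those of cecum and colon.

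Most surface receptors of the regulatory list were high. Cd300c, a paired receptor of myeloid cells, was at 521 (471 to 576) CPM in small intestine members and 6.08 CPM in the other barcodes, a ratio of 85.7-fold (66 to 113). The other barcodes include the 38 with at least 2 Siglech UMIs that the CD3 and Jchain limits removed. Cd300c stood at 366 CPM in the 9 of these with a CD3 sum of 1, and at 0.305 CPM in T-like barcodes. In cecum, colon and stomach members it stood at 479.8, 308 and 354 CPM. Lair1, an inhibitory collagen receptor, stood at 1625, 878, 1474 and 1122 CPM against 10.8 CPM in small intestine T-like barcodes. Klra17, which encodes Ly49Q, was 49.2-fold higher in small intestine members, Clec12a, an inhibitory lectin, 44.1-fold, Ptprs, a phosphatase receptor that restrains interferon release, 23-fold, and Pirb, an inhibitory receptor for MHC class I, 13.3-fold. Of the 11 regulatory receptors that entered the comparison, 9 were at least 2-fold higher and 2 lower: Lilrb4a at 32.5 against 75.6 CPM and Cd200r1 at 37.9 against 119 CPM. The list median was 4.23 on the log2 scale, against 0.26 over all genes tested.

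DAP12, encoded by Tyrobp, stood at 6335 (6155 to 6519.7) CPM in small intestine, 3440.4 (3058 to 3857) in cecum, 5087 (4663 to 5540.4) in colon and 5403 (4649 to 6245) in stomach. It was 6.36-fold higher in small intestine members than in the other barcodes, of which T-like barcodes held 1223 CPM. Blnk, the adaptor of a B cell-receptor-like signalling complex that plasmacytoid cells use below DAP12, was 11.8-fold (10.03 to 13.9) higher, at 366, 503, 337 and 591 CPM in the 4 sets of members. The kinases Syk and Lyn were 5.98-fold and 5.63-fold higher, and the phospholipase Plcg2 2.75-fold. Hcst, the DAP10 adaptor of NKG2D, was lower, at 58.2 against 363 CPM. In all, 7 of 11 genes of this list were at least 2-fold higher and 1 was lower, against 20.7% and 11.2% of all genes.

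**Figure D2:**
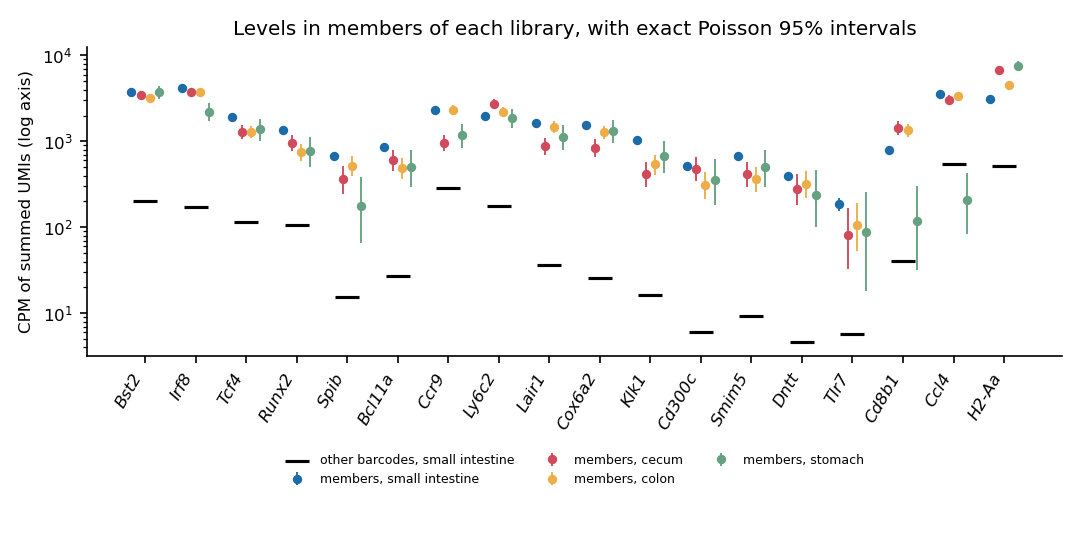
CPM of summed UMIs on a log axis for 18 genes in the members of each library (coloured points with exact Poisson 95% intervals) and in the other barcodes of the small intestine library (black bars). All 4 sets of members lie above the black bar for Bst2, Irf8, Tcf4, Cox6a2 and Cd300c; Ccl4 in stomach members (207 CPM) lies below it, and H2-Aa is lowest in small intestine members (3151 CPM), with the stomach value resting on 2 members.

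Of the endosomal sensors, Tlr7, the receptor for single-stranded RNA, was at 186 (156 to 219) CPM in small intestine members, or 137 UMIs, and at 81.9, 106 and 88.6 CPM in cecum, colon and stomach members, from 7, 11 and 3 UMIs. It was 32.4-fold (23.9 to 44.4) above the other small intestine barcodes. Tlr9, the receptor for unmethylated DNA, gave 1 UMI in the 179 members. Unc93b1, the chaperone that carries both receptors to endosomes, was at 943, 562, 771 and 709 CPM and 10.5-fold higher. Pld4, an endosomal exonuclease that trims receptor ligands, was 37.5-fold (33.4 to 42.1) higher, Slc15a4, a lysosomal transporter needed for receptor signalling, 6.84-fold, and Cnpy3, a receptor-folding partner of Hsp90b1, 3.99-fold. The signalling adaptors were nearer the other barcodes: Myd88 stood at 58.2 against 39.4 CPM, Irak4 at 36.6 against 38.8, and Traf6 at 19 against 16.3. The list gave 7 genes higher and 1 lower of 13 entered, against 20.7% and 11.2% of all genes. The lower one was Pld3 at 13.5 against 52.2 CPM.

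Irf7 and Irf5, the factors that drive interferon and cytokine genes below these sensors, were 5.72-fold and 7.52-fold higher in small intestine members, Irf7 at 279, 374, 173 and 266 CPM across the 4 sets. Interferon alpha and beta genes are not analysed here. Among other output genes, Ccl4, a chemokine, was at 3575 (3440.3 to 3714) CPM in small intestine, 3054 (2695 to 3448) in cecum, 3382 (3037 to 3755) in colon and 207 (83.1 to 426) in stomach. In small intestine it was 6.61-fold (6.31 to 6.92) above the other barcodes, and 87.2% of members held at least 1 UMI. Ccl3, its neighbour, was at 306 against 155 CPM. Tnf gave 23 UMIs, Il12a 3 and Il6 0 in the 179 members, so Il12a and Il6 were at or near the lower limit of the counts and Tnf lay above it.

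Over the small intestine members as a set, interferon-stimulated genes did not move as a block: of 18 entered, 9 were at least 2-fold higher and 3 lower. Over all genes the shares were 20.7% and 11.2%. Ly6a, also called Sca-1, was 7.33-fold higher, Trim30a 4.54-fold and Ifi27l2a 3.04-fold. The strongly inducible Isg15 was at 55.5 against 84.3 CPM and Ifit3 had 0 UMIs. Of the 179 members, 165 held no Isg15 UMI, and the 3 that held 5 or more contributed 51.2% of the 41 Isg15 UMIs, with up to 11 in 1 member. When the members were clustered alone at resolution 1.0, a group of 6 members held several of these genes together. Isg15 stood there at 1321 against 16.7 CPM in the rest, Ifi203 at 1548 against 121, Irf7 at 2004 against 226 and Trim30a at 1822 against 416. The clustering used these genes, so this is a description. The cytosolic RNA sensor gene Ddx58, which encodes RIG-I, was at 6.77 against 106 CPM.

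Receptors for cytokines were largely high. Flt3, the receptor of the growth factor on which dendritic cells depend, was at 309 (270.0 to 352) CPM in small intestine members and 10.4 in the other barcodes, 29.8-fold higher, and at 316, 356 and 207 CPM in cecum, colon and stomach members. Csf2rb and Csf2rb2, beta chains of the GM-CSF and IL-3 receptors, were 12.5-fold and 28.8-fold higher. These paralogs are near copies, so how reads were divided between them is uncertain. Ifnar1 and Ifnar2, the interferon receptor chains, were 4.56-fold and 8.28-fold higher, and Tgfbr1 5.74-fold. Ifngr1 was lower, at 52.8 against 293 CPM, as was Il2rg at 67.7 against 141. Csf1r, the macrophage growth factor receptor, gave 4 UMIs. In total 9 of 12 entered were higher and 2 lower, against 20.7% and 11.2% of all genes.

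MHC class II genes, which present peptides to CD4 T cells, were higher in small intestine members than in the other barcodes for 8 of 8 entered, with a list median of 2.42 on the log2 scale. H2-Aa was at 3151 (3025 to 3282) CPM in small intestine, 6705 (6167 to 7277) in cecum, 4519 (4119 to 4947) in colon and 7618 (6717 to 8606) in stomach. The intervals of cecum and stomach overlapped, and small intestine was the lowest. Leaving out the 2 stomach members rich in macrophage markers gave 2928 (2212 to 3802) CPM in the other 4, a value level with small intestine. Cd74, the invariant chain, stood at 8928, 16044, 12246 and 19901 CPM in the same order. Without those 2 members the stomach value was 9463 (8134 to 10946) CPM, close to small intestine. Per member after thinning to 1000 UMIs, the summed class II genes gave 0 to 57 UMIs in small intestine (median 15), 1 to 95 in cecum (median 31), 1 to 56 in colon (median 23) and 7 to 172 in stomach (median 28.5). The ranges overlapped, and the small intestine median was the lowest. For scale, the small intestine median was 34 in 31 B-like barcodes, 67 in 19 macrophage-like, 84.5 in 12 conventional-dendritic-like and 0 in T-like barcodes. Conventional-dendritic-like barcodes were chosen partly by their H2-Aa count, so their class II value is partly built in. B-like barcodes of cecum, colon and stomach had medians of 54, 50 and 44, so the small intestine was the lowest library for them too.

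Costimulatory genes were scarce beside this. Cd80 gave 0 UMIs, Cd86 9 and Cd40 5 over the 179 small intestine members, and Cd80 and Cd86 had 0 UMIs in the members of every other library. Cd83, a maturation marker, was at 65, 187, 145 and 472 CPM in the 4 sets of members, lowest in small intestine. Ccr7, which guides mature dendritic cells to lymph nodes, was at 32.5, 81.9, 96.4 and 59.1 CPM. Without the members that held 5 or more UMIs of macrophage, B or T cell receptor markers, Ccr7 was at 10.4 CPM in small intestine, 53 in cecum and 0 UMIs in colon, and Cd83 at 44.4, 119, 123 and 471 CPM.

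Lysosomal genes were high as a group. Ctsl, a cathepsin that processes endosomal receptors and antigen, was at 2034 (1933 to 2139.7) CPM in small intestine members against 50.1 CPM, 40.6-fold higher, and at 1966, 1888 and 1240.1 CPM in cecum, colon and stomach members. Ctsh was 24.4-fold higher, Grn, which encodes progranulin, 19.99-fold, Psap, the precursor of lysosomal saposins, 14-fold, and Ctsb 10.8-fold. Of 17 entered, 13 were at least 2-fold higher, and Cd63, a tetraspanin of lysosomes and granules, was the 1 lower, with 1 UMI in members against 99.5 CPM. Of the genes of the secretory pathway, 4 of 20 were higher and 1 was lower, a share of higher genes near the 20.7% over all genes. Herpud1, of the protein-quality machinery of the endoplasmic reticulum, was 2.79-fold higher, and Xbp1, the factor of secretory expansion, stood at 632 against 509 CPM. The other barcodes include 166 plasma-like ones, and T-like barcodes held 74.2 CPM of Xbp1.

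Homing receptors gave 10 of 17 higher and 3 lower, where 20.7% of all genes were higher and 11.2% lower. Ccr9, the receptor for the small intestinal chemokine CCL25, was at 2321 (2213 to 2434) CPM in small intestine, 959.6 (763 to 1191) in cecum, 2332 (2047 to 2645) in colon and 1181 (844 to 1608) in stomach. Its level was alike in small intestine and colon members and lower in those of cecum. The stomach value rose to 1829.8 (1275 to 2545) CPM without the 2 macrophage-rich members, an interval that overlaps that of small intestine. Gpr183, an oxysterol receptor, was 10.5-fold higher than in the other small intestine barcodes, Ccr2, an inflammatory chemokine receptor, 9.96-fold, and Cxcr4, the marrow retention receptor, 8.66-fold. Itgae, the CD103 chain that binds epithelial E-cadherin, was lower at 48.8 against 605 CPM, 12.4-fold (8.95 to 17.7). Its partner Itgb7 was at 289.8 against 290.5 CPM, and Itga4, the other partner of that chain, was 2.26-fold higher. Cxcr6, a residency-linked receptor, was at 14.9 against 155 CPM.

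Genes of early lymphoid development were part of the profile. Dntt, which encodes terminal transferase, the enzyme that adds bases at antigen-receptor joins, was at 395 (351 to 444) CPM in small intestine, 281 (179.9 to 418) in cecum, 318 (219 to 447) in colon and 236 (102 to 465) in stomach. Its ratio in small intestine was 85.4-fold (63.2 to 117), and T-like and B-like barcodes held 0 UMIs. Ighm, the IgM heavy chain, was at 1849, 889, 1243 and 1269.6 CPM against 373 CPM in T-like and 3681 CPM in B-like small intestine barcodes. Iglc3, a lambda light chain constant gene with near-identical neighbours, was at 990.0 CPM against 2.59 CPM in T-like barcodes. Mzb1, a chaperone of immunoglobulin and secretion shared with B and plasma cells, was at 418 against 1.22 CPM. Ptcra, the pre-T cell receptor alpha chain, gave 23, 7 and 8 UMIs in small intestine, cecum and colon members. Of the 8 genes entered, 6 were higher and 0 lower, against 20.7% and 11.2% of all genes. Rag1 and Rag2 are not analysed here.

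The CD8 chains set members apart from the surrounding T cells in opposite ways. Cd8b1, the beta chain of the CD8 coreceptor, was at 786 (723 to 852) CPM in small intestine, 1428 (1186 to 1705) in cecum, 1349 (1135 to 1592) in colon and 118 (32.2 to 302) in stomach. In small intestine members it was 19.5-fold (17.2 to 22.1) above the other barcodes, and 38% of thinned members against 3.59% of T-like barcodes carried it. Cd8a, the alpha chain, stood at 404 (359 to 452) CPM in small intestine members and 987 CPM in the other barcodes, 2.45-fold lower. In cecum it stood at 761 (587 to 969) CPM in members and 350.2 in the others, and in colon at 520.3 (391 to 679) and 796. The receptor genes Trac, Trbc1, Trbc2 and Trdc gave 3, 11, 6 and 1 UMIs over the 179 members. The rule asked for no CD3 transcript, so the low level of T cell genes, 11 of 13 entered, is partly built in.

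Of genes held by conventional or transitional dendritic cells, the lectins were high. Cd209d, of the DC-SIGN family, was at 452 (405 to 504) CPM in small intestine, 468 (334 to 637) in cecum, 443 (324 to 591) in colon and 827 (549 to 1195) in stomach. It was 72.2-fold (55.6 to 95) above the other small intestine barcodes. Clec10a, a galactose-binding lectin, was 57-fold higher, at 321, 386, 529.9 and 148 CPM, Clec9a, a receptor for dead cells, 50.6-fold, at 221, 140.4, 231 and 177 CPM, and Cd209a 13.4-fold. Sirpa and Itgax (CD11c) were 15.2-fold and 4.04-fold higher. Other genes of conventional type 1 cells were scarce in small intestine members, Xcr1 with 0 UMIs, Cadm1 with 12 and Naaa with 11. Of the list for these cells, 4 genes had at least 20 UMIs. Of the transitional dendritic list, Cx3cr1 had 0 UMIs and Axl 1, while 6 genes of that list had at least 20 UMIs in these members.

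Further genes with the highest ratios in small intestine members were named by rank, 15 in all. Besides Cd300c, Dntt and Cd209d they included Fyb2 at 51.5 CPM, D13Ertd608e at 108, Smim5 at 673, Fbxl13 at 97.5, Foxr1 at 81.3, Klk1 at 1046, Adam11 at 317, Sh3bgr at 289.8, Cox6a2 at 1551 and P2ry13 at 139 CPM. Their ratios ran from 59.1-fold (38.1 to 94.7) for P2ry13, a purinergic receptor, to 142-fold (51 to 547) for Fyb2. These ratios and ranks depend on the Siglech-bearing barcodes that the other limits left among the other barcodes. In the 19 of these with a CD3 sum of 2 or more, Cox6a2 stood at 1122 and Smim5 at 296 CPM. T-like barcodes held 2.28 and 0 CPM of them. Klk1, a tissue kallikrein, belongs to a cluster of near-identical genes, so its counts and those of Klk1b27 are uncertain as a split. Klk1 varied widely between members: 69.3% of small intestine members held it, with a median of 2 and up to 36 UMIs. Cox6a2, a subunit form of cytochrome oxidase otherwise known from heart and muscle, was steadier, held by 92.7% of members at 1551, 843, 1272 and 1329 CPM across the sets. The 10 lowest were Trdc, Igha, Ccl5, Gzma, Igkc, Gzmb, Cst7, Cd160, Tox and Skap1, of which Ccl5 stood at 56.9 against 17507 CPM and Gzma at 70.4 against 16867 CPM. All are genes of T or plasma cells, which the rule removed.

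**Figure D3:**
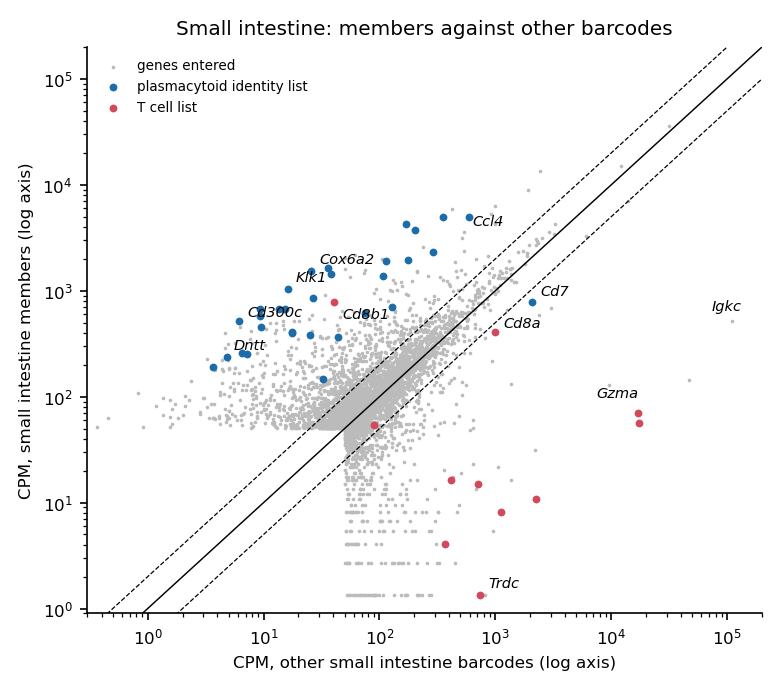
CPM in small intestine members (vertical) against the other small intestine barcodes (horizontal), both on log axes, with the line of equality and dashed lines at 2-fold. Points are those of the 4510 genes entered that had UMIs in both sets. Plasmacytoid list genes (blue) lie above the upper dashed line except Cd7, and T cell list genes (red) lie at or below the lower one except Cd8b1 and Cd28.

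The same genes were examined in the other libraries. Of the 15 highest, those with at least 20 UMIs in total numbered 8 in cecum, 11 in colon and 7 in stomach. Each was at least 2-fold higher in members than in the other barcodes of its library, where 16.9%, 18.1% and 29.5% of all genes tested were. A gene scarce outside members reaches 20 UMIs mainly through members, so this outcome was close to fixed and is a description only. The shares over all genes also asked for 50 CPM in either set, unlike the counts in this paragraph. Of the 31 plasmacytoid genes, 27 of 28 entered were higher in cecum, 29 of 30 in colon and 28 of 29 in stomach. Cd7 was the exception each time: it was lower in small intestine, cecum and colon members and within 2-fold in stomach. Cd7 is shared by T cells, which held 3304 CPM of it against 780.1 CPM in small intestine members. The 10 lowest genes were at least 2-fold lower in 10 of 10 cases in cecum and colon, where 20.9% and 20.7% of genes were, and in 6 of 10 in stomach, where 10.3% were.

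**Figure D4:**
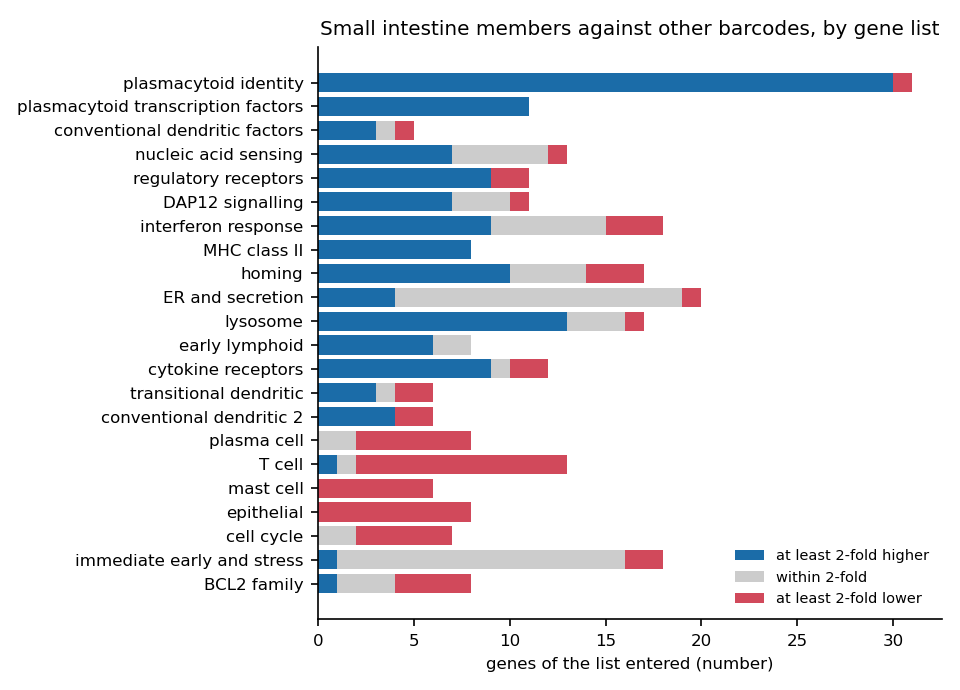
For each gene list drawn, the number of genes entered that were at least 2-fold higher (blue), within 2-fold (grey) or at least 2-fold lower (red) in small intestine members than in the other barcodes. Lists with few genes entered are left out. The plasmacytoid list gives 30 of 31 higher, the factor list 11 of 11 and MHC class II 8 of 8, while the epithelial list gives 8 of 8 and the mast cell list 6 of 6 lower.

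The nearest set large enough to compare was that of 31 B-like barcodes of the same library, which share class II genes and several factors. Of 4775 genes tested, 19.7% were at least 2-fold higher in members and 17.0% lower. The plasmacytoid list gave 30 of 31 higher and 0 lower, and the B cell list 0 higher and 9 of 9 lower. B-like barcodes were chosen by their Cd79a and Ms4a1 counts, so the result for B cell genes is partly built in. Spib was the 1 plasmacytoid gene within 2-fold, at 676 against 451 CPM. The highest ratios were those of Ccr9, Ctsl, Ccnd1, Fyb and Cd7, each with 1 UMI in the B-like set, and Bst2 with 5. Ccr9 was 216-fold (38.8 to 8548) higher, Bst2 70.5-fold (30.2 to 217) higher, and Ccnd1, a cyclin of the G1 phase, was at 1594, 1006, 973 and 738 CPM in members of small intestine, cecum, colon and stomach. Among the lowest were Mef2b, Pou2af1, Rgs13, Ebf1 and Dok3, with Ebf1, the B lineage factor, at 5.42 against 397 CPM. Of 10 MHC class II genes, 4 were lower in members, and H2-Aa stood at 3151 against 4797 CPM.

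T-like barcodes gave 16.7% of 4919 genes higher and 16.5% lower in members. Against them 14 of 16 lysosomal genes and 11 of 20 secretory-pathway genes were at least 2-fold higher, and the plasmacytoid list again gave 30 of 31, with a list median of 7.23 on the log2 scale. The 166 plasma-like barcodes gave 88.3% higher and 2.64% lower of 3975 genes, with a median over all genes of 2.19 on the log2 scale; their immunoglobulin transcripts fill most of their total, so ratios to this set are shifted as a whole and are not used. In the comparison with all other barcodes the median over genes was 0.26.

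Members were then compared between libraries. For small intestine against cecum members 2420 genes reached 100 CPM in either set, with 7.48% at least 2-fold higher in small intestine and 6.24% lower. The plasmacytoid list gave 9 of 31 higher and 0 lower, the higher ones including Atp1b1, Upb1, Rpgrip1, Pacsin1, Ptprs, Klra17, Klk1 and Ccr9. Klk1 was at 1046 (973 to 1122) CPM in small intestine and 421 (295 to 583) in cecum members, and Pacsin1, a membrane-bending protein, at 381 (337 to 428) and 140.4 (72.6 to 245). MHC class II gave 3 of 8 lower in small intestine, H2-Aa, H2-Eb1 and H2-Ob, and the immediate early and stress list 6 of 18 lower. Without the 11 small intestine and 2 cecum members that held 5 or more UMIs of macrophage, B or T cell receptor markers, H2-Aa stood at 3051 (2920.4 to 3185) and 5723 (5196 to 6289) CPM and H2-Eb1 at 1368 and 2398 CPM, both less than 2-fold apart, and H2-Ob at 14.8 and 106 CPM. Upb1 at 464 and 238 CPM and Ier2 at 246 and 424 CPM also came within 2-fold. Jun, an early response factor, was at 2710.0 CPM in small intestine and 5746 in cecum members, and Hspa1a, an inducible chaperone, at 432 and 1287. Per barcode the summed stress genes had a median of 14 UMIs per 1000 in small intestine members and 23 in cecum members, and of 13 and 21 in T-like barcodes of the same libraries, so the difference was of like size in T-like barcodes. The highest ratios were those of Igha, Plcb2, Cic, Lars2 and Cd300lf, each resting on 1 cecum UMI, and the lowest those of Tpi1, H2-Ob, Fbrsl1, Polr2h and Gmppb, the first of these at 21.7 against 105 CPM.

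Small intestine against colon members gave 4.25% higher and 3.88% lower of 2399 genes, smaller shares than against cecum members. The plasmacytoid list gave 1 of 31 higher, Klk1b27 at 251 (216 to 289) against 96.4 (46.2 to 177) CPM, and 0 lower. The stress list gave 4 of 17 lower, and MHC class II 0 of 7 in either direction. Igha was not found in colon members, so its 145 CPM in small intestine is at least 5.01-fold higher, taking 3 counts over the colon members. Small intestine T-like barcodes held 247 CPM of Igha and the library has 166 plasma-like barcodes, and the part of free RNA in it was not tested. Dpy19l1, Ftl1-ps2 and Nsmce2, with 2 colon UMIs each, were also among the highest ratios. Plbd1, Tent5a, Selenos, Rlf and Tsc22d2 were lowest, Tent5a at 56.9 against 231 CPM.

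Cecum against colon members gave 3.81% higher and 7.10% lower of 1944 genes. The plasmacytoid list gave 0 of 31 higher and 4 lower, which were Atp1b1, Rpgrip1, Pacsin1 and Ccr9, and the homing list 5 of 13 lower. Ccr9 stood at 959.6 against 2332 CPM. Without the mixed members Rpgrip1 at 185 and 347 CPM and Pacsin1 at 159 and 302 CPM came within 2-fold. The genes with the highest ratios were Ube2k, Mgat2, Tbl1xr1, Jtb and Rab11a, and those with the lowest Selenos, Tmem258, Ndufa1, Dleu2 and Gas7. Tmem258, of the endoplasmic reticulum, was at 58.5 in cecum and 424 CPM in colon members.

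Dividing cells were few. Mki67 and Top2a gave 7 UMIs each over the 179 small intestine members, or 9.48 CPM against 115 and 101 CPM in the other barcodes, and Cdk1 gave 0. None of 7 cell cycle genes entered was higher and 5 were lower. Survival genes differed from those of the neighbours: Bcl2 was at 19 against 504 CPM, 26.6-fold (15.8 to 48.7) lower, and had 0 UMIs in cecum and colon members. Without the 11 members with 5 or more UMIs of macrophage, B or T cell receptor markers it was at 11.8 CPM. Bcl2a1b and Bcl2a1d, near copies of each other, were 12.6-fold and 11.3-fold lower. Mcl1, another survival gene of this family, was at 471 against 402 CPM, and Bbc3, which encodes the death-promoting PUMA, was the 1 gene of 8 at least 2-fold higher. Immediate early genes lay close to the other barcodes, with 1 of 18 higher and 2 lower; Junb was at 585 against 2381 CPM and Zfp36, a destabiliser of cytokine transcripts, 2.86-fold higher.

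Small intestine members fell into 2 groups when clustered alone, without the rule genes: 123 in group 1 and 56 in group 2. Depth ran from 2170 to 10746 UMIs in group 1 (median 3745) and from 1990 to 4652 in group 2 (median 3385.5), and 30 members of group 1 were deeper than every member of group 2. Siglech had medians of 16 and 15 UMIs and reached 52 and 40. The part of depth in the grouping was not tested. Since the clustering used all other genes, their differences are a description. Of 5741 genes with at least 20 UMIs, 5.31% were at least 2-fold higher in group 1 and 2.80% lower. MHC class II genes gave 5 of 9 higher in group 1 and stress genes 8 of 18. Per member, summed class II genes had a median of 17 UMIs per 1000 in group 1 and 8 in group 2, and stress genes 17 and 9. H2-Aa stood at a ratio of group 1 to group 2 of 2.63 (2.31 to 3), Klk1 of 3.71 (2.87 to 4.86), Ccl4 of 2.54 (2.26 to 2.87) and Ccl3 of 9.29 (4.63 to 21.8). Group 2 held more Clec10a, S1pr4 and Lgals1, the ratio for Clec10a being 0.393 (0.302 to 0.513). Several lineage genes were close to even, with Irf8 at 0.987 (0.910 to 1.07), Bst2 at 0.953 (0.875 to 1.04) and Ccr9 at 1.09 (0.978 to 1.23), while Runx2 at 0.628 (0.551 to 0.716) and Cox6a2 at 0.620 (0.549 to 0.702) were lower in group 1 by less than 2-fold. Class II, chemokine and stress genes thus differed between groups that shared the plasmacytoid program. The 4 members with at least 5 UMIs of macrophage markers were all in group 1. The groups were not compared without members carrying macrophage, B or T cell receptor markers. With 30 neighbours, 12 members of group 1 moved to the smaller group and 4 of group 2 to the larger.

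**Figure D5:**
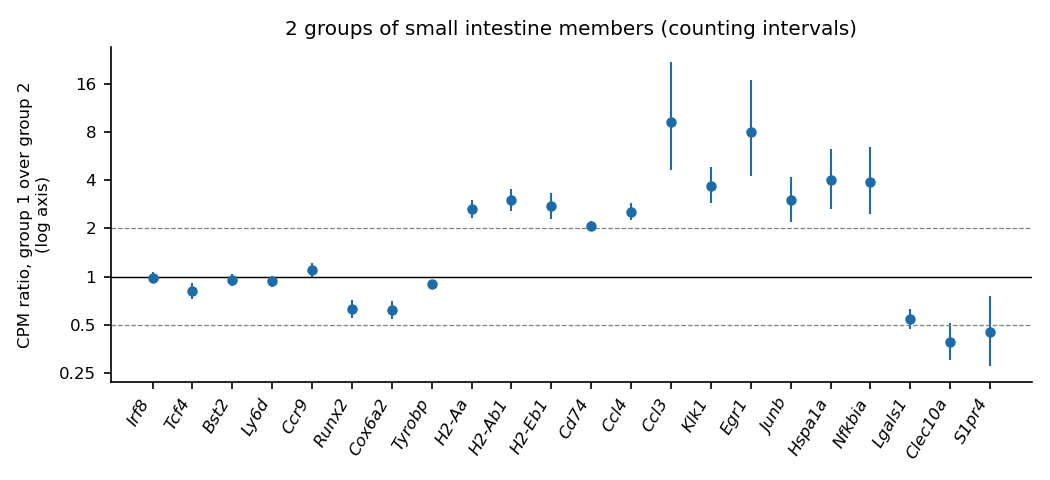
Ratio of CPM in group 1 (123 members) to group 2 (56 members) of the small intestine members, on a log axis with exact 95% counting intervals, for 22 genes; dashed lines mark 2-fold and the solid line equality. Irf8, Bst2 and Ccr9 lie near 1, the class II genes, Ccl3, Klk1 and the stress genes above 2, and Clec10a and S1pr4 below 0.5.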

How the data were processed

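Leukocytes sorted as CD45.2+ were measured in 1 droplet library of 3′ ends per tissue. Per the submitters' processing notes, Cell Ranger and Seurat 3.0.0 were used with builds GRCm38 and mm10, and the authors deposited whole-number UMI counts per gene and barcode. The counts were used as deposited, without a further filter on barcodes and with no doublet caller run. Counts were summed over a set and divided by its total (CPM). Intervals are exact 95% Poisson intervals for a level, exact conditional binomial ones for a ratio and Clopper-Pearson ones for a share. A gene entered a comparison at 50 CPM in either set (100 CPM between libraries) and 20 UMIs in total, and at least 2-fold counted as higher or lower. No p-value was computed.

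Barcodes with 0 Siglech UMIs were sorted into comparison sets. These were T-like (CD3 sum at least 2, no Cd79a, Jchain below 10), B-like (Cd79a at least 2, Ms4a1 at least 1, CD3 sum 0), macrophage-like (C1q sum at least 3), conventional-dendritic-like (Zbtb46 and Flt3 sum at least 1, H2-Aa at least 2) and plasma-like (Jchain at least 10, CD3 sum 0). Sets under 20 barcodes were not compared gene by gene.

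Genes named by rank had an interval that excluded 1 and no barcode with over 25% of their UMIs: the 15 highest, held by at least 10% of members, and the 10 lowest against other barcodes, 6 each way against B-like barcodes and 5 each way between libraries. All genes of the lists could be named besides, and some genes that the rule names are not reported here. The members and the lists were chosen with earlier results of these data known. Small intestine members were clustered with scanpy 1.11.5 (1000 variable genes without the rule genes, 20 components, 15 neighbours, resolution 0.5). Other steps used Python 3.11.15, numpy 2.4.6, scipy 1.17.1 and pandas 2.3.3. The ratio script was checked on simulated data.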

Additional observations from a re-analysis of the deposited data

Results flagged for a closer look

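For 3 genes, members stood on opposite sides of the other barcodes in different libraries, with intervals that excluded equality in both. The difference between libraries was not tested, with 1 library per tissue. Ccl4 had a log2 ratio of -2.68 (-4.00 to -1.64) in stomach, from 207 CPM in members (7 UMIs) and 1327 CPM in other barcodes, and of 2.72 in small intestine. Cd8a had a log2 ratio of 1.12 in cecum, from 761 and 350.2 CPM, and of -1.29 in small intestine, from 404 and 987 CPM. Csf2rb had a log2 ratio of -1.88 in stomach, from 3 UMIs in members, and of 3.65 in small intestine. The stomach values rest on 6 members. Without the 2 rich in macrophage markers, Ccl4 was at 366 CPM and Csf2rb at 52.3 CPM (1 UMI).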

How the results depend on the processing

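Dropping the CD3 limit raised the small intestine share to 6.53%. Without the deepest barcodes, cecum held 10 members, or 0.248%. With at least 1 Siglech UMI, stomach held 15 members, or 0.469%. With no limit on CPM, 12483 genes entered, of which 1841 were higher and 2131 lower in small intestine members, against 935 and 506; more genes entered by construction. At resolution 1.0 the small intestine members formed 6 groups. Of 300 values for the 25 genes named by rank against other barcodes, 242 moved by less than their interval, 58 moved by more and 0 changed sign. Of 3048 values for 254 list genes, 16 changed sign: Apoe, Atf3 and Il1b with at least 1 Siglech UMI, Btg2, Fabp2, Lgals4, Pdia4, Phgr1 and Reg3b without the deepest barcodes, Btg2, Fabp2, Lgals4 and Pdia4 by mean CPM per barcode, and Fosb, Mcl1 and Pdia6 after centring on the median gene. The causes were not tested. All 31 shares of members with a gene moved without thinning. No paired analysis was possible because each tissue has 1 library, so the tissues share fewer than 2 replicate numbers. Depth limits genes with few UMIs, most of all in the 6 stomach members.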
